A study of Caenorhabditis elegans with 4 samples.

Results

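NFYA-1 peaks were described in the 2 broad piRNA domains of Caenorhabditis elegans chromosome IV. A peak was taken as a member when its midpoint lay on chromosome IV of build WS180 from 4500000 to below 7000000, called the left domain here, or from 13500000 to below 17200000, called the right domain. The combined peak list held 269 such peaks among 5320, 143 in the right and 126 in the left domain. The replicate 1 list held 166 of 2907 and the replicate 2 list 188 of 3319. The peaks come from chromatin immunoprecipitation followed by sequencing (ChIP-seq) of late embryos of the hermaphrodite strain OP404, grown at 20 °C. The strain is unc-119(ed3) III with the transgene wgIs404, which joins nfya-1 to a TY1-GFP-3xFLA tag and carries unc-119(+), was brought in by bombardment and was outcrossed 3 times. Per the labels the fusion protein follows the expression pattern of nfya-1, and no change to the native gene is named. The 2 ChIP libraries were made with anti-GFP antibodies, and the 2 input libraries are total DNA of the same strain and stage. Peak lists were analysed for the ChIP libraries and for the combined data, and values of the inputs were not analysed here.

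NFYA-1 is the worm form of NF-YA, the subunit that lets the NF-Y complex recognise CCAAT boxes. Its partners NF-YB and NF-YC form a dimer that resembles a pair of core histones, and in mammals NF-Y is known mainly from promoters. In the worm, NF-Y is known to repress the Hox gene egl-5. piRNAs, called 21U-RNAs in the worm, are small germline RNAs bound by the Piwi protein PRG-1 that silence foreign and transposon sequence. Most are transcribed from very short units of their own, each with an upstream motif, crowded into the domains studied here among ordinary genes, and the factors PRDE-1 and SNPC-4 are known to bind there. In RefSeq (assembly WBcel235), 14714 of 15363 piRNA genes (95.8%) are on chromosome IV. That assembly differs from the build of the peaks, so no peak was assigned to a piRNA or to another gene, and the windows themselves were not checked against piRNA positions.

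The only value per peak is the authors' q-value (a p-value adjusted for the number of tests), given below as −log10 q, so that a larger value is a stronger peak. It depends on sequencing depth, which is unknown here, as well as on enrichment, and serves to rank peaks within a list. Whole embryos were used, so binding in few cells cannot be told apart from weak binding in many. The labels do not tell whether separate cultures gave the 2 ChIP libraries.

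The strongest NFYA-1 peak in the right domain by the combined list ran from 15570558 to 15571256 on chromosome IV. Its −log10 q was 168 in the combined list, where it ranked 13 among all 5320 peaks, 121 in replicate 1 and 96.8 in replicate 2. The next, from 16491099 to 16492921, had 77.4 in the combined list, 41.8 in replicate 1 and 37.3 in replicate 2. In every list the first of these stood well above the second. The peak from 13887178 to 13888104 had 71.2 in the combined list, 47.3 in replicate 1 and 34.4 in replicate 2. It closes a run of 5 combined peaks within 12 kb that begins at 13876722, and all 5 were found in both replicates. Near the far end of the domain the peak from 17108815 to 17109771 had 60.6 in the combined list and 32.2 in replicate 2. In replicate 1 it was covered by 2 separate peaks, and the stronger had 19.6. A neighbour from 17100488 to 17101113 had 47.7 in the combined list, 23.4 in replicate 1 and 25.3 in replicate 2. The other 5 of the 10 strongest right-domain peaks began at 15027277, 14119160, 15646310, 15049485 and 14824755, with combined values between 44.6 and 62.7. All 10 were found in both replicates.

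The left domain held no combined peak of the strength of the leading right-domain peak. Its strongest ran from 4749704 to 4750354, with a −log10 q of 81.9 in the combined list, where it ranked 70, 55.2 in replicate 1 and 58.3 in replicate 2. Next was the peak from 5973458 to 5974707, with 75.3 in the combined list, 38.5 in replicate 1 and 38.0 in replicate 2. The replicates gave nearly equal values at both. The third, from 6645602 to 6646661, had 67.4 in the combined list, 42.9 in replicate 1 and 33.7 in replicate 2. It is the first of 4 peaks within 4 kb, which end with another strong one from 6648491 to 6649109 (39.1 in the combined list), while the 2 between them were not found in both replicates. A pair of wide peaks of almost equal strength lay from 5751228 to 5752398 and from 5753168 to 5754532, with 38.6 and 37.1 in the combined list and 769 bp between them. The rest of the 10 strongest began at 5715705, 4776501, 6790402 and 6323617, with combined values from 35.3 to 50.7. All 10 left-domain peaks were found in both replicates.

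**Figure D1:**
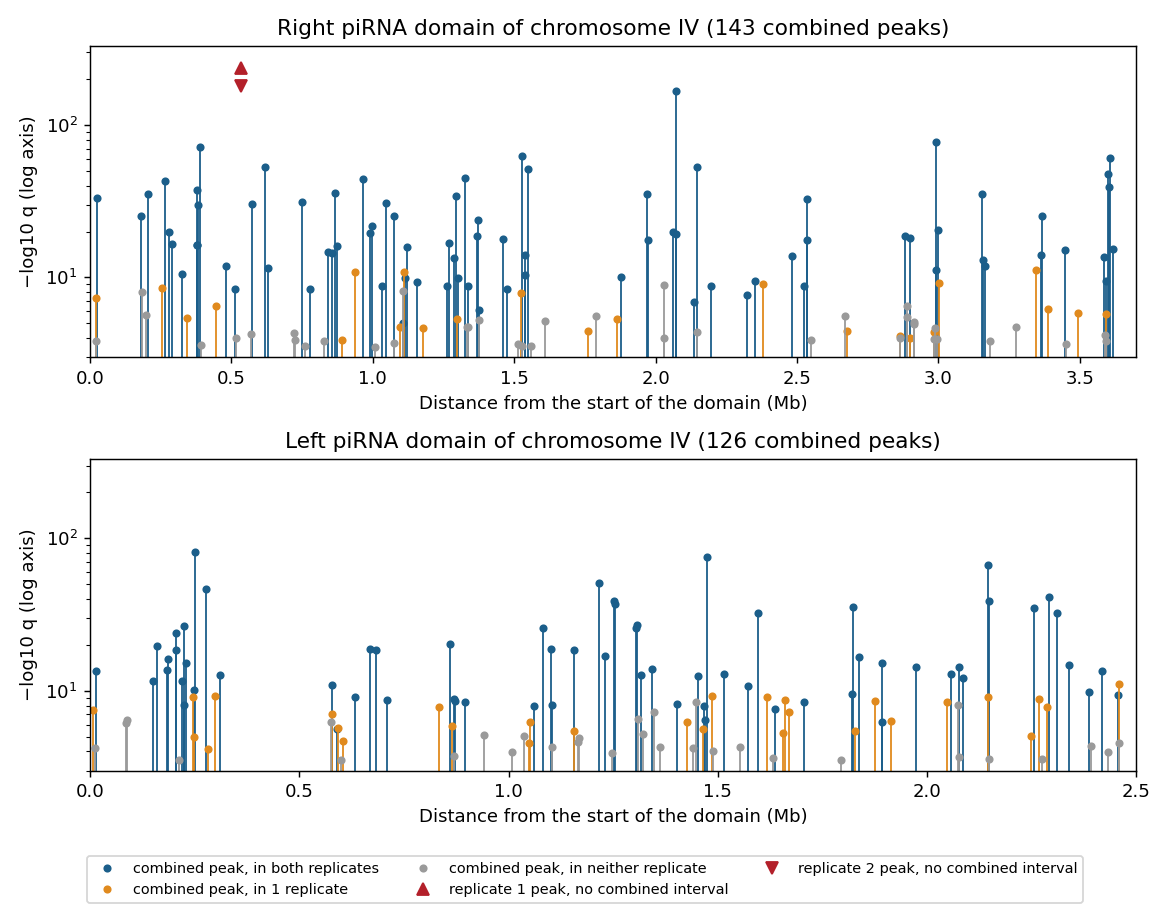
Strength of every combined NFYA-1 peak (−log10 q, log axis) against its distance in Mb from the start of the right domain (top, 143 peaks) and of the left domain (bottom, 126 peaks), coloured by presence in the replicate lists. The red triangles are the replicate peaks near 0.5 Mb of the right domain, at 235 and 179, which have no combined interval and stand above the strongest combined peak at 168.

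The strongest NFYA-1 peak of the domains in either replicate is missing from the combined list. It spanned 14032444 to 14034938 in replicate 1, with a −log10 q of 235 and rank 3 of that list, and 14032454 to 14034856 in replicate 2, with 179 and rank 4. The nearest combined intervals lie 15833 bp before it and 35051 bp after it in replicate 1 coordinates, and both are weak, at 3.99 and 4.23. With this region counted, the strongest right-domain peak was 1.95 times the runner-up in replicate 1 and 1.85 times in replicate 2, as ratios of −log10 q. Only 1 other replicate 1 peak and 3 other replicate 2 peaks of the domains lacked a combined interval. Each was found in 1 replicate alone, with values of 4.01 in replicate 1 and 3.49 to 4.75 in replicate 2. In the whole lists, 0.757% of replicate 1 peaks and 2.23% of replicate 2 peaks had none. The largest −log10 q of the series was 233 in the combined list, 309 in replicate 1 and 278 in replicate 2. Whether other strong peaks of the series lack a combined interval was not tested, so combined ranks cover only the peaks in that list.

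NFYA-1 peaks in the left domain were unevenly spread, with a crowded stretch beside a long empty one. The 100 kb from 4700000 to 4800000 held 14 combined, 12 replicate 1 and 10 replicate 2 peaks, more than any other 100 kb section of chromosome IV in each list. Of 1000 sections in the series, 20 were at least as full in the combined list, 5 in replicate 1 and 26 in replicate 2, itself included. Of the 14, 9 were found in both replicates and 1 in neither, and their −log10 q ran from 3.49 to 81.9 with a median of 10.9. Besides the strongest peak of the domain they included those from 4776501 to 4776892 (46.4), from 4725299 to 4725730 (26.6) and from 4705156 to 4705624 (23.8). After 1 further peak, no combined peak lay from 4810700 to 5076360, a stretch of 265.7 kb. It was the longest such gap of the combined list on chromosome IV and was among the 5 longest of 5314 gaps in the series. The stretch was empty in both replicates as well, whose own gaps there were 267.3 kb each. Counting the gap itself, 4 gaps on IV and 13 in the series were at least as long in replicate 1. In replicate 2 it was the longest on IV, with 11 at least as long in the series. The sequence of this stretch was not analysed here, so whether reads could be placed in it was not tested. In the other 100 kb sections of the left domain the combined count ran between 0 and 11.

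In the right domain the counts varied along the chromosome with no steady trend. The full 500 kb sections from 13500000 on held 21, 21, 29, 15, 13, 22 and 13 combined peaks, and the last 200 kb held 9. The 1.85 Mb from 13500000 held 82 combined, 54 replicate 1 and 58 replicate 2 peaks, and the 1.85 Mb from 15350000 held 61, 36 and 43. Each list had fewer in the later stretch, by a single split that was made after the positions were seen and was not tested. The longest stretches without a combined peak were 184.9 kb from 16178116, 153.9 kb from 16502324, 153.9 kb from 13525554 and 152.1 kb from 15107498, and none held a replicate peak. Replicate 1 had still longer ones, of 345.0 kb from 16037033 and 327.2 kb from 15050327. Each of these held 5 combined and 2 replicate 2 peaks. The longest in replicate 2 were 209.3 kb from 15050301 and 187.2 kb from 16178098. The fullest 100 kb of the right domain, from 16400000, had 10 combined but only 4 peaks in each replicate.

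**Figure D2:**
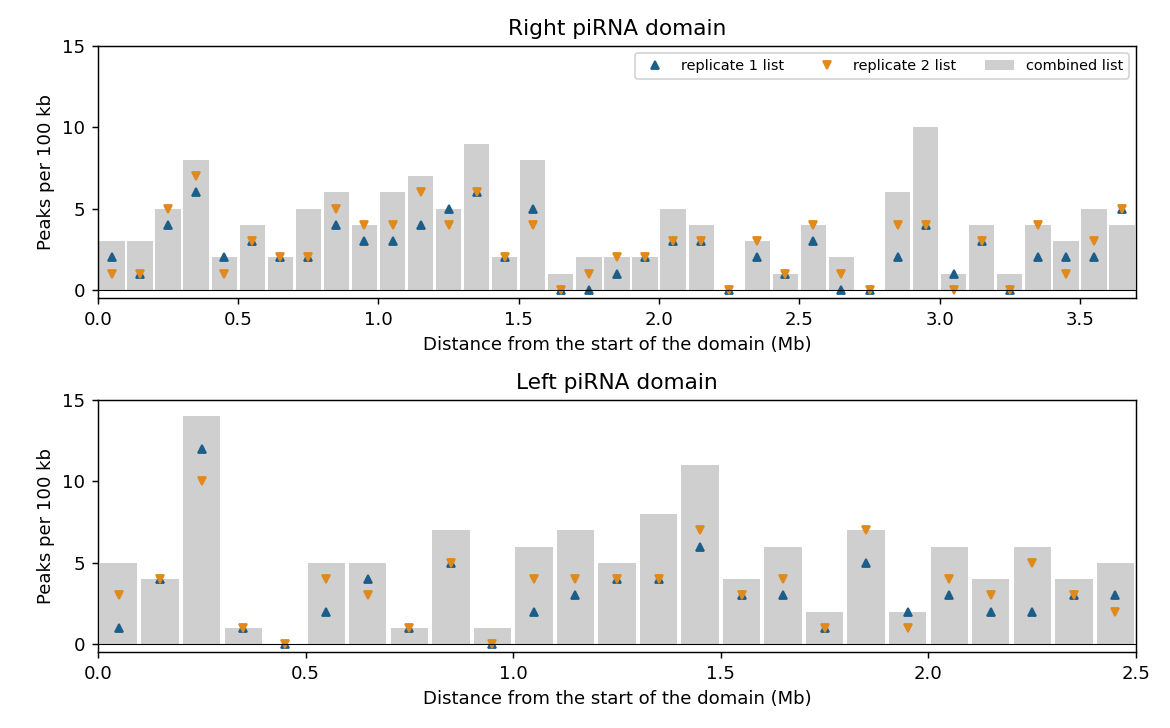
NFYA-1 peaks in each 100 kb section of the right domain (top) and left domain (bottom), by distance in Mb from the start of the domain; bars are the combined list, triangles the replicate lists. The left-domain section from 0.2 to 0.3 Mb holds 14 combined, 12 replicate 1 and 10 replicate 2 peaks and is followed by sections with 1 and 0 combined peaks.

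The comparison with the rest of chromosome IV asked whether the piRNA domains hold fewer or more NFYA-1 peaks than the chromosome around them. In the combined list the domains held 43.4 peaks per Mb (exact 95% Poisson interval 38.4 to 48.9), against 52.1 (48.0 to 56.5) on the rest of IV, a density ratio of 0.833 (0.718 to 0.964). This did not pass the two-sided exact binomial test after adjustment over 12 tests (adjusted p = 0.0815). The right domain alone did, with 38.6 peaks per Mb and a ratio of 0.742 (0.614 to 0.892, exact binomial, adjusted p = 0.0131). The left domain had 50.4 peaks per Mb and a ratio of 0.967 (0.792 to 1.17, exact binomial, adjusted p = 0.841). The difference between the right and left domains themselves did not pass (ratio 0.767, exact binomial, adjusted p = 0.138). Densities near that of the right domain were also found elsewhere, with 40.4 combined peaks per Mb on chromosome V and 41.2 on X, and the end of IV past the domain had 30.6 (exact interval 13.2 to 60.3, 8 peaks).

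The lower density of the right domain was not called in the replicate lists. Replicate 1 had 24.3 peaks per Mb in the right domain, 30.4 in the left domain and 27.1 on the rest of IV. Replicate 2 had 27.3 in the right domain, 34.8 in the left domain and 31.5 on the rest of IV. The order of the 3 regions was the same in both replicates, right domain lowest and left domain highest. The ratio of the right domain to the rest was 0.897 in replicate 1 and 0.867 in replicate 2 (exact binomial, adjusted p = 0.517 and 0.424). Left over rest was 1.12 and 1.11 in these lists. All these p-values cover counting error over peaks, which are not independent replicates. Combined counts per 100 kb varied more than independent placement gives, with a variance of 1.57 times the mean in the right domain, 1.96 in the left domain and 1.36 on the rest of IV, so the p-values are too small.

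**Figure D3:**
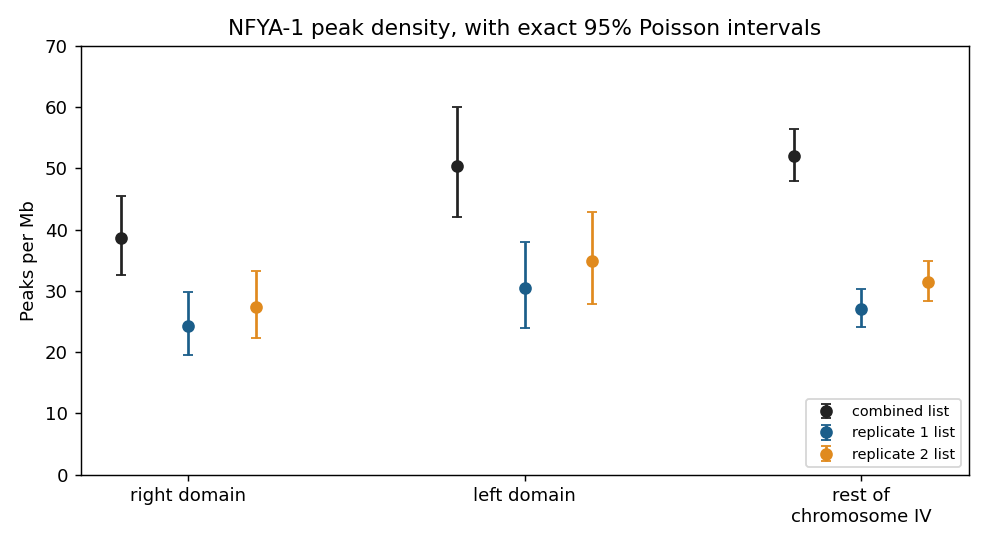
Peaks per Mb in the right domain, the left domain and the rest of chromosome IV for the 3 lists; bars are exact 95% Poisson intervals, which cover counting error only. The combined list has 38.6 in the right domain against 52.1 on the rest of IV, while the intervals of each replicate list overlap between regions.

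The weak peaks of the combined list, rather than its strong ones, were scarcer over both domains, and of the single domains in the right one. Among the 2660 stronger peaks of that list the domains held 24.8 per Mb, against 22.8 on the rest of IV, a ratio of 1.09 (exact interval 0.885 to 1.33). Among the 2660 weaker peaks they held 18.5 per Mb, against 29.3 on the rest of IV, a ratio of 0.634 (0.508 to 0.786). In the right domain the ratio was 1.01 for stronger and 0.536 for weaker peaks (for the weaker, exact binomial, adjusted p = 4.57e-05). In the left domain it was 1.21 and 0.779, which for the weaker did not pass (interval 0.578 to 1.03, exact binomial, adjusted p = 0.245). For weaker peaks the difference between right and left did not pass either (ratio 0.688, exact binomial, adjusted p = 0.184). Accordingly 57.2% of domain peaks (154 of 269) belonged to the stronger part, against 43.8% on the rest of IV (256 of 584) and, by construction, 50.0% of the whole list, by two-sided Fisher's exact test with p = 2.99e-04 and an adjusted p of 0.00269 over 9 tests. This split and its tests were added after the densities had been seen. With a −log10 q of 10 as the limit the shares were 43.1% and 34.8%, a difference of 8.36 percentage points in place of 13.4 (Fisher's exact test, unadjusted p = 0.0223). By domain, the share in the stronger part was 59.4% in the right domain (Fisher's exact test, adjusted p = 0.00461) and 54.8% in the left (adjusted p = 0.0898, which did not pass). The excess was not called in the replicate lists, each split by its own ranks in the same way. Of the weaker combined peaks, 58.3% in the domains and 59.1% on the rest of IV were found in neither replicate. The replicate lists thus lack most of these weaker peaks, so their split cannot decide whether such peaks are scarcer in the domains. The share was 47.6% in the domains against 49.0% on the rest of IV in replicate 1, and 52.7% against 47.3% in replicate 2 (Fisher's exact test, adjusted p = 0.905 and 0.435). In the right domain alone it was 50.0% in replicate 1 and 58.4% in replicate 2 (Fisher's exact test, adjusted p = 0.905 and 0.124). In the left domain alone it was 44.7% in replicate 1 and 46.0% in replicate 2. For both domains the excess of stronger peaks was thus called in the combined list and in neither replicate list, and the difference between lists was not tested.

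**Figure D4:**
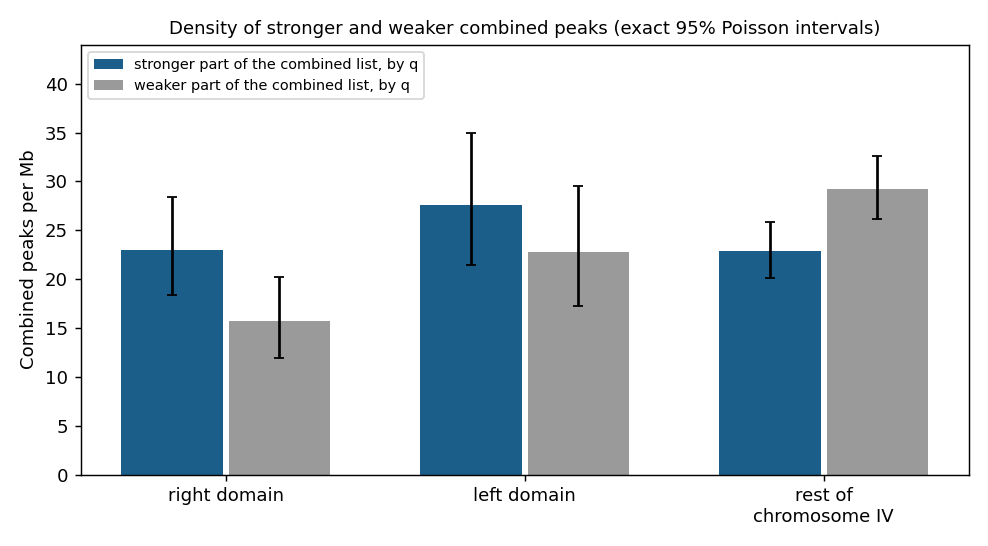
Combined peaks per Mb in the right domain, the left domain and the rest of chromosome IV, for the stronger and the weaker part of the combined list (2660 peaks each); error bars are exact 95% Poisson intervals. Stronger peaks have similar densities in all 3 regions, 23.0, 27.6 and 22.8 per Mb, while weaker peaks have 15.7, 22.8 and 29.3.

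Combined peaks were stronger at the median in the domains than around them, which restates the shares in the stronger part given above. They had a median −log10 q of 8.83 (quartiles 5.22 and 16.8) in the domains, against 7.51 (4.91 and 13.6) on the rest of IV and 8.15 in the whole list. The right domain had 9.40 and the left domain 8.59. In replicate 1 the median was 6.88 in the domains against 7.10 on the rest of IV, and in replicate 2 it was 7.10 against 6.55. The replicates thus differ in direction, and the medians were not tested. Among the 500 strongest peaks of each list, the domains held 33 in the combined list, 29 in replicate 1 and 35 in replicate 2. These are 6.60%, 5.80% and 7%, where the domains make up 5.06%, 5.71% and 5.66% of the whole lists, each inside its exact 95% interval (for the combined list 4.59 to 9.14%). In the same order, the shares were 4%, 6% and 4% among the 100 strongest and 5.3%, 5.7% and 5.9% among the 1000 strongest.

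A larger share of combined peaks was found in both replicates in the domains than on the rest of IV. Per Mb such peaks were about as many, 23.7 in the domains against 23.2 (ratio 1.02, exact interval 0.829 to 1.26). Combined peaks in neither replicate were fewer per Mb, 11.3 in the domains against 17.8 (ratio 0.636, exact interval 0.477 to 0.839). In the domains 147 of 269 combined peaks overlapped a peak of both replicates (54.6%, exact Clopper-Pearson 95% interval 48.5 to 60.7), against 260 of 584 (44.5%, 40.4 to 48.7) on the rest of IV and 46.4% of the whole list (odds ratio 1.50, adjusted p = 0.0255 over 4 tests by Fisher's exact test, two-sided). A further 16 (5.95%) were found in replicate 1 alone and 36 (13.4%) in replicate 2 alone, against 7.39% and 14.1% of the whole list. The remaining 70 of the domains were found in neither (26.0%, 20.9 to 31.7), against 199 (34.1%, 30.2 to 38.1) on the rest of IV and 32.1% of the whole list (Fisher's exact test, adjusted p = 0.0427). The share in both was 56.6% in the right and 52.4% in the left domain. With a 50% reciprocal overlap it was 50.2% in the domains against 41.1% on the rest of IV and no longer passed (Fisher's exact test, adjusted p = 0.0572), nor did the share in neither (29.7% against 36.5%, adjusted p = 0.124). The Fisher's exact tests on shares, here and above, also count peaks of the same libraries as if independent. Their p-values cover counting error only.

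Presence in the replicates moved with strength. Of combined domain peaks with a −log10 q of 20 or more, 50 of 50 were in both replicates, against 92 of 92 on the rest of IV. From 10 to below 20 it was 62 of 66 (93.9%), against 106 of 111 (95.5%) on the rest of IV. From 5 to below 10 it was 35 of 92 (38.0%), against 61 of 228 (26.8%) on the rest of IV. Below 5 it was 0 of 61, which allows a share of up to 4.92% at 3 counts of the total (exact Clopper-Pearson upper limit 5.87%), against 1 of 153 on the rest of IV. In the stronger part of the list the direction turned, with 87.7% of domain peaks in both replicates against 92.2% on the rest of IV (Fisher's exact test, adjusted p = 0.655). Combined domain peaks found in both replicates had a median of 16.0 and a median width of 428 bp, those in 1 replicate 6.22 and 321.5 bp, and those in neither 4.25 and 297.5 bp. The strongest domain peak found in neither replicate had 8.87.

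Between the replicate lists, 149 of 166 replicate 1 peaks of the domains overlapped a replicate 2 peak (89.8%), against 85.5% on the rest of IV and 85.7% of the whole list. In the other direction it was 148 of 188 (78.7%), against 74.2% on the rest of IV and 75.0% of the whole list. Neither difference passed (Fisher's exact test, adjusted p = 0.292 for each). Unmatched domain peaks were mostly weak, with a median −log10 q of 4.13 in replicate 1 and 4.60 in replicate 2. All domain peaks of these lists had medians of 6.88 and 7.10. The strongest of the 17 in replicate 1 had a −log10 q of 5.90. The strongest of the 40 in replicate 2, from 14610863 to 14611207, had 7.52, above the domain median of its list.

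The distance between matched replicate peaks in the domains was near that elsewhere. Over 149 domain pairs the midpoints differed by a median of 29 bp, and 134 pairs (89.9%) lay within 100 bp, against 87.7% of 260 pairs on the rest of IV and 89.8% of 2492 pairs in the series. On the log2 scale, −log10 q of replicate 1 over replicate 2 had a median ratio of -0.13 in the domains (quartiles -0.48 and 0.18). It was -0.05 on the rest of IV and -0.006 in the series. Replicate 1 was the stronger in 59 of 149 domain pairs (39.6%, exact interval 31.7 to 47.9). On the rest of IV it was 47.3% of 260 pairs and in the series 49.2% of 2492 pairs, differences that were not tested. In the right domain it was 28 of 83 (33.7%) and in the left domain 31 of 66 (47.0%), near the rest of IV. The missing region described above goes the other way, with 235 in replicate 1 and 179 in replicate 2. A difference of more than 2-fold was seen in 6 domain pairs (4.03%), against 4.23% on the rest of IV and 3.65% in the series. Among the 6 was the replicate 1 peak from 17108811, whose replicate 2 partner from 17108846 was also matched to another replicate 1 peak. The widest difference in favour of replicate 2 was at 14491173 to 14491445, with 8.17 in replicate 1 and 18.3 in replicate 2. The widest in favour of replicate 1 was at 6474747 to 6475165, with 12.2 in replicate 1 and 6.05 in replicate 2. Across the 149 pairs, which share their libraries, Spearman's rho was 0.833.

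**Figure D5:**
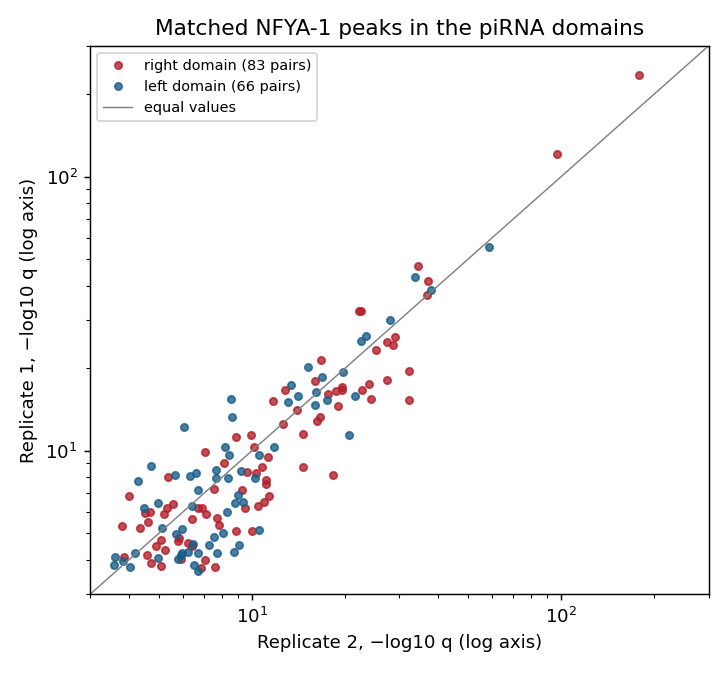
−log10 q of replicate 1 against replicate 2 (log axes) at the 149 matched NFYA-1 peaks of the piRNA domains, 83 in the right and 66 in the left domain; the line marks equal values. The point at the upper right, 235 and 179, is the region with no combined interval.

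At peaks of the domains found in both replicates, the combined value was close to the sum of those of the replicates. The ratio of combined to summed −log10 q had a median of 0.941 in the domains (quartiles 0.836 and 1.04, 147 peaks), against 0.911 on the rest of IV (260 peaks) and 0.961 in the whole list. The combined value was above both replicate values at 145 of the 147.

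NFYA-1 peaks of the domains were of ordinary width. The median was 370 bp (quartiles 295 and 494), against 354.5 bp on the rest of IV and 352.5 bp in the whole list. Peaks of 1000 bp or more numbered 16 of 269 in the domains (5.95%), 11 of them in the right domain, against 18 of 584 (3.08%) on the rest of IV and 3.76% of the whole list, without a test. Wider combined peaks of the domains tended to be stronger, with a Spearman's rho of 0.534 across the 269 peaks, against 0.595 on the rest of IV. The single widest combined peak of each domain was of moderate strength. In the right domain it ran from 14620367 to 14622761 (2395 bp), with 15.8 in the combined list, 6.19 in replicate 1 and 6.72 in replicate 2. In the left domain it ran from 5985168 to 5987181 (2014 bp), with 9.30 in the combined list and 4.76 in replicate 2, and was not found in replicate 1. The missing region, the strongest of the domains in each replicate, was also the widest there, at 2495 bp in replicate 1 and 2403 bp in replicate 2. At the other end, 4 of 269 combined domain peaks were under 100 bp wide, down to 14 bp. It was 11 of 584 on the rest of IV and 84 of 5320 in the whole list, each down to 1 bp.

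Neighbouring combined peaks were a median of 9968.5 bp apart in the right domain and 9316 bp in the left domain, against 10060 bp on the rest of IV. Gaps under 1000 bp made up 11.3% in the right domain and 11.2% in the left domain, against 11.0% on the rest of IV. Of the 30 such pairs in the domains, 8 had both members in both replicates and 16 had a member in neither. Pairs elsewhere were not counted in this way, so these counts cannot be called particular to the domains. Of single combined peaks in the whole list, 46.4% were in both replicates and 32.1% in neither. One of the 8 pairs joined the second strongest right-domain peak to a peak from 16489860 to 16490875 (11.2), at a gap of 223 bp. Another joined the peaks from 15471344 to 15471789 (35.0) and from 15472398 to 15472709 (17.7), 608 bp apart. The smallest gap in the domains was 201 bp.

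At the window edges, the combined peaks just inside the right domain began at 13519033 (−log10 q of 3.82) and 17118566 (15.3), and those just outside at 13487596 (21.5) and 17215097 (11.6). For the left domain, those just inside began at 4506637 (7.53) and 6959482 (4.56), and those just outside at 4469865 (7.70) and 7016527 (14.9).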

How the data were processed

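Per the file headers, the authors deposited peaks on WormBase build WS180, called with PeakSeq per the source column, each with a q-value (a corrected p-value). The sources used here do not give the aligner, PeakSeq version, threshold, use of the inputs or making of the combined list. The labels' protocols give 2% formaldehyde crosslinking, sonication and 10% of the lysate as input.

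An overlap of 1 bp or more counted as shared. A peak with several overlaps was matched to the strongest. The span of IV, 17.41 Mb, was taken between the outermost peaks of the 3 lists. Densities were compared by two-sided exact binomial tests, adjusted by Benjamini-Hochberg over 12 tests (3 lists, 4 contrasts), and shares by Fisher's exact test. Intervals and p-values cover counting error only. Functions were tested on simulated data. Named were the 10 strongest combined peaks of each domain, replicate peaks without a combined interval, the widest peaks, longest gaps and edge peaks; others were chosen after their values were seen. Members, lists and tests were chosen with earlier results of these data known. SciPy 1.17.1 gave the tests, under Python 3.11.15 with pandas 2.3.3, and NumPy 2.4.6 and matplotlib 3.10.9 the sums and plots.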

Additional observations from a re-analysis of the deposited data

How the results depend on the processing

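Of 51 alternative values for 12 results, 27 kept direction and side of the threshold. The comparator between the domains, the weaker part of the list, peaks in neither replicate and all values for the stronger-part share were chosen after seeing the data. Each replicate list alone gave density ratios to the rest of IV of 0.963 to 0.987 for both domains, 0.867 to 0.897 for the right domain, which lost its call, and 1.11 to 1.12 for the left domain, which changed direction without passing in any list. The stronger part of the combined list gave 1.09 for both domains, 1.21 for the left and 1.01 for the right. Peaks in both replicates gave 1.02, 1.14 and 0.944 in that order. Both domains together passed, which they had not, with windows narrowed by 250 kb (0.805), against the stretch between the domains (0.799), for peaks in neither replicate (0.636) and for the weaker part of the list (0.634). Against chromosomes I, II and V together the right domain had a ratio of 0.756 (exact binomial, adjusted p = 0.00991), where I held 60.9 combined peaks per Mb, II 56.3 and V 40.4.

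For combined peaks in both replicates, the difference in share, domains minus rest, was 10.1 percentage points. It was 9.09 with a 50% reciprocal overlap, -4.53 in the stronger part of the list and 3.12 in the weaker part, and passed in none of them. For peaks in neither replicate the difference of -8.05 points became -6.73, -0.00507 and -0.885 in that order, again without passing. The excess of domain peaks in the stronger part of the list, 13.4 points, was -1.42 to 5.35 in the replicate lists and did not pass. Those lists lack most of the weaker combined peaks, so they cannot decide whether such peaks are scarcer. With a −log10 q of 10 as the limit of the combined list the excess was 8.36 points (Fisher's exact test, unadjusted p = 0.0223). Among the stronger peaks of the list, the domain medians were 15.2 for −log10 q and 428 bp for width, as weak peaks were left out. For the calls that changed, the cause was not tested.

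No paired analysis was possible because the inputs were not analysed here and no result compares 2 groups of libraries. Depth is unknown, so a weak peak missing from a list cannot be called absent.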
